A study of Homo sapiens with 22 samples.

Results

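The genes described here are the replication-dependent histone genes, which encode the bulk of the nucleosome proteins. They were chosen by name: every protein-coding gene of GENCODE release 44 called H1-1 to H1-6, or H2AC, H2BC, H3C or H4C followed by a number. The rule gave 70 genes of the 20015 protein-coding genes tested. Of these, 6 encode the linker histone H1, 17 encode H2A, 19 encode H2B, 13 encode H3 and 15 encode H4. The cluster on chromosome 6 held 55 of them, in groups of 34, 5 and 16 genes, and the cluster at 1q21 on chromosome 1 held 11. The other 4 lay outside both clusters: H2AC25 and H2BC26 side by side further along chromosome 1, H4C16 on chromosome 12 and H2BC12L on chromosome 21.

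Replication-dependent histone genes are transcribed in S phase, when new DNA needs new nucleosomes. Their mRNAs are short, have no introns as a rule, and end in a stem-loop bound by SLBP instead of a poly(A) tail. Transcription takes place in histone locus bodies, nuclear structures that form on the clusters around the cyclin E/CDK2 target NPAT. Promoters of different histone families carry different boxes: H2B promoters are known for an octamer bound by OCT1 (POU2F1), and H4 promoters for a site of HINFP. ETS1 is an ETS factor that binds a GGAA core, the same core that the Ewing sarcoma fusion EWSR1::FLI1 binds.

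The cells were TC-32, an established Ewing sarcoma line that carries EWSR1::FLI1. Every culture received siRNA at 20 nM by reverse transfection, either siNEG, a control, or siFLI1, which targets FLI1 and is used in this series to deplete the fusion. The labels give no time after transfection and no other cell line. Each arm had 2 chromatin immunoprecipitation libraries each for ETS1, for H3K27ac (Active Motif antibody), a mark of active promoters and enhancers, and for H3K4me3, a mark of promoters, and 1 further H3K27ac library labelled ab4729. The readout is the list of peaks called in each of 14 libraries. Histone RNA was not measured, and the labels do not say whether replicates were separate cultures.

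Depth was not stated, so the number of peaks is the only size known for a list. The ETS1 lists held 302 and 208 peaks in siNEG and 1633 and 2635 in siFLI1. The H3K27ac lists held 60027, 60401, 65501 and 61481 peaks, in the order siNEG 1, siNEG 2, siFLI1 1, siFLI1 2, which is the order of all sets of 4 values below. The H3K4me3 lists held 18914, 19720, 18344 and 18423 peaks, and the ab4729 lists 32738 in siNEG and 51663 in siFLI1. Summit heights recovered from the lists differed between ETS1 replicates by less than sampling noise: chi-square divided by its degrees of freedom was 0.81 in siNEG (80 regions) and 0.42 in siFLI1 (495 regions). Each ETS1 pair was therefore counted as 1 sample. For the marks the value between replicates was 1.08 to 1.23, just above counting noise, against 5.07 to 7.51 between the arms, so the spread between replicates may be largely technical. H3K27ac summits were 1.34 times as high in siNEG replicate 1 as in siNEG replicate 2. Of 8 genes chosen as markers of Ewing sarcoma cells, 8 had H3K4me3 in all 4 lists, and of 8 markers of other cell types none did. H3K27ac separated these sets less cleanly. It was in all 4 lists at 7 Ewing sarcoma markers and 1 other marker, and in no list at 1 and 4.

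Promoters from RefSeq (build GRCh38.p14) were found for 64 of the 70 genes, all but H2AC12, H2BC12L, H3C11, H3C12, H4C1 and H4C3. Windows of 300 bases, from 250 before to 50 after the start, were searched on both strands for CCAAT, the octamer ATTTGCAT, the TATA form TATAAA, the ETS core CCGGAA, and TTTCGCGC and TTTGGCGC, forms of the E2F site. The following 160 bases lie directly before the start, 5′ to 3′ on the gene's strand, with matches in capitals on either strand. They were chosen to show an H2B promoter with both marks in all 4 lists, a testis H2A promoter, from another pair, with neither mark, and 3 of the 4 promoters with an ETS core within these bases, of which H3C6 and H4C8 had H3K4me3 in all 4 lists and H4C9 in none. The fourth is the testis gene H1-6.
H2BC11 (chr6:27132796-27132955, minus strand): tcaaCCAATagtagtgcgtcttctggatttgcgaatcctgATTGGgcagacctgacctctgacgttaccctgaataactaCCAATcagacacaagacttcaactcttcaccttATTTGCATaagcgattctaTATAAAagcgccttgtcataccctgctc
H2AC1 (chr6:25726563-25726722, minus strand): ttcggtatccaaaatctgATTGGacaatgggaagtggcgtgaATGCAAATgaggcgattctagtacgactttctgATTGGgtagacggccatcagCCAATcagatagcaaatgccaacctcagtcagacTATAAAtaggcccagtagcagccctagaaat
H3C6 (chr6:26224975-26225134, plus strand): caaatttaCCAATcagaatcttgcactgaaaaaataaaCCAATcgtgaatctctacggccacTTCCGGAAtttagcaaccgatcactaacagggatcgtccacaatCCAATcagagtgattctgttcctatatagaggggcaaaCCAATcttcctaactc
H4C8 (chr6:26285535-26285694, minus strand): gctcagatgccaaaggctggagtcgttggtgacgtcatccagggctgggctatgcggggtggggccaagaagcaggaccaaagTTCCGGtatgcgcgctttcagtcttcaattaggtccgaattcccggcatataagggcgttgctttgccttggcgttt
H4C9 (chr6:27139122-27139281, plus strand): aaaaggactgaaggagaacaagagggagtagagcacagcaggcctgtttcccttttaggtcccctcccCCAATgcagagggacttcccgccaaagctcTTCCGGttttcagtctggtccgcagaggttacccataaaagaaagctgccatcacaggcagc

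H2BC11 showed the octamer before a TATA box, with CCAAT upstream on both strands. H2AC1, which encodes a testis H2A, held the same 3 kinds of box, so these letters did not separate it from the marked promoters. H3C6 held CCGGAA on both strands, overlapping as TTCCGGAA. H4C8 and H4C9 each held it once, on the opposite strand. Over all 64 promoters, CCAAT was in 54 (84.4%), against 34.6% of the 35116 promoters in the table. It was in all 6 H1, 16 H2A, 18 H2B and 11 H3 promoters but in only 3 of 13 H4 promoters. The octamer was in 25 (39.1%), against 1.77% of all promoters, and these were 11 of 16 H2A and 14 of 18 H2B promoters. Many H2A and H2B genes stand in pairs with starts 194 to 251 bp apart. Their windows overlap, so 1 box can count for both genes. TATAAA was in 42 (65.6%) against 11.5%, and TTTCGCGC in 12 (18.8%) against 0.515%. TTTGGCGC was in none, against 0.652%. The ETS core CCGGAA was in 10 (15.6%), close to the 17.2% of all promoters. Those 10 were H1-4, H1-6, H2AC18, H2AC19, H3C6, H4C7, H4C8, H4C9, H4C14 and H4C15. The promoters were poor in G and C, with a median of 43.7% against 58.7% for all promoters.

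No histone gene had an ETS1 peak within 1 kb of a transcription start site (TSS) in any of the 4 ETS1 lists, 0 of 70 in each. Over all genes, 1.94% had an ETS1 peak in a siNEG list, 12.5% in a siFLI1 list and 7.68% in both siFLI1 lists. Genes with both histone marks in all 4 lists had ETS1 in both siFLI1 lists more often, in 15.2% of 9009 genes, and 0 of the 54 histone genes among them did. In any of the 4 ETS1 lists the shares were 24% and 0 of 54. Where H3K27ac was strong, with a mean percentile of at least 90 within its lists, the share was 21.8% of 3500 genes and 0 of 41 histone genes. None of the 10 genes with the CCGGAA core in the promoter had an ETS1 peak either. However, 5 of them had no H3K4me3 in any list. The windows of H2AC18, H2AC19, H4C14 and H4C15 were also copied in whole or large part, as described below. How often promoters with this core had ETS1 over all genes was not counted. A list holds only peaks past the caller's limit, and the siNEG ETS1 lists were short, so weaker binding was not detectable there.

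By cluster, the counts were 0 of 55 genes on chromosome 6 and 0 of 11 at 1q21. As described below, 4 of the 11 windows at 1q21 were copied whole and 4 more over most of their length. These counts therefore cannot show whether the clusters differ. The spans of the histone gene groups, with 2 kb added at each end, held no ETS1 peak in any list. The nearest ETS1 peak to any of the 70 genes lay 27.5 kb from the TSS of H2BC26, outside both clusters, in siFLI1 replicate 1. It sat at the promoter of RNF187 (chr1:228486609-228487509), which encodes a ubiquitin ligase. That peak was in all 4 lists, with an authors' fold enrichment of 38.3, 43.3, 53.1 and 76.1, at percentiles 99.2 to 100 of its list. For the main chromosome 6 group the nearest peak was 235 kb from H4C8 in both siFLI1 lists, and 1005 kb from H2AC1 in both siNEG lists. For 1q21 it was 262 and 180 kb from H2AC21 in the siFLI1 lists, at the promoters of PLEKHO1 and VPS45.

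**Figure D1:**
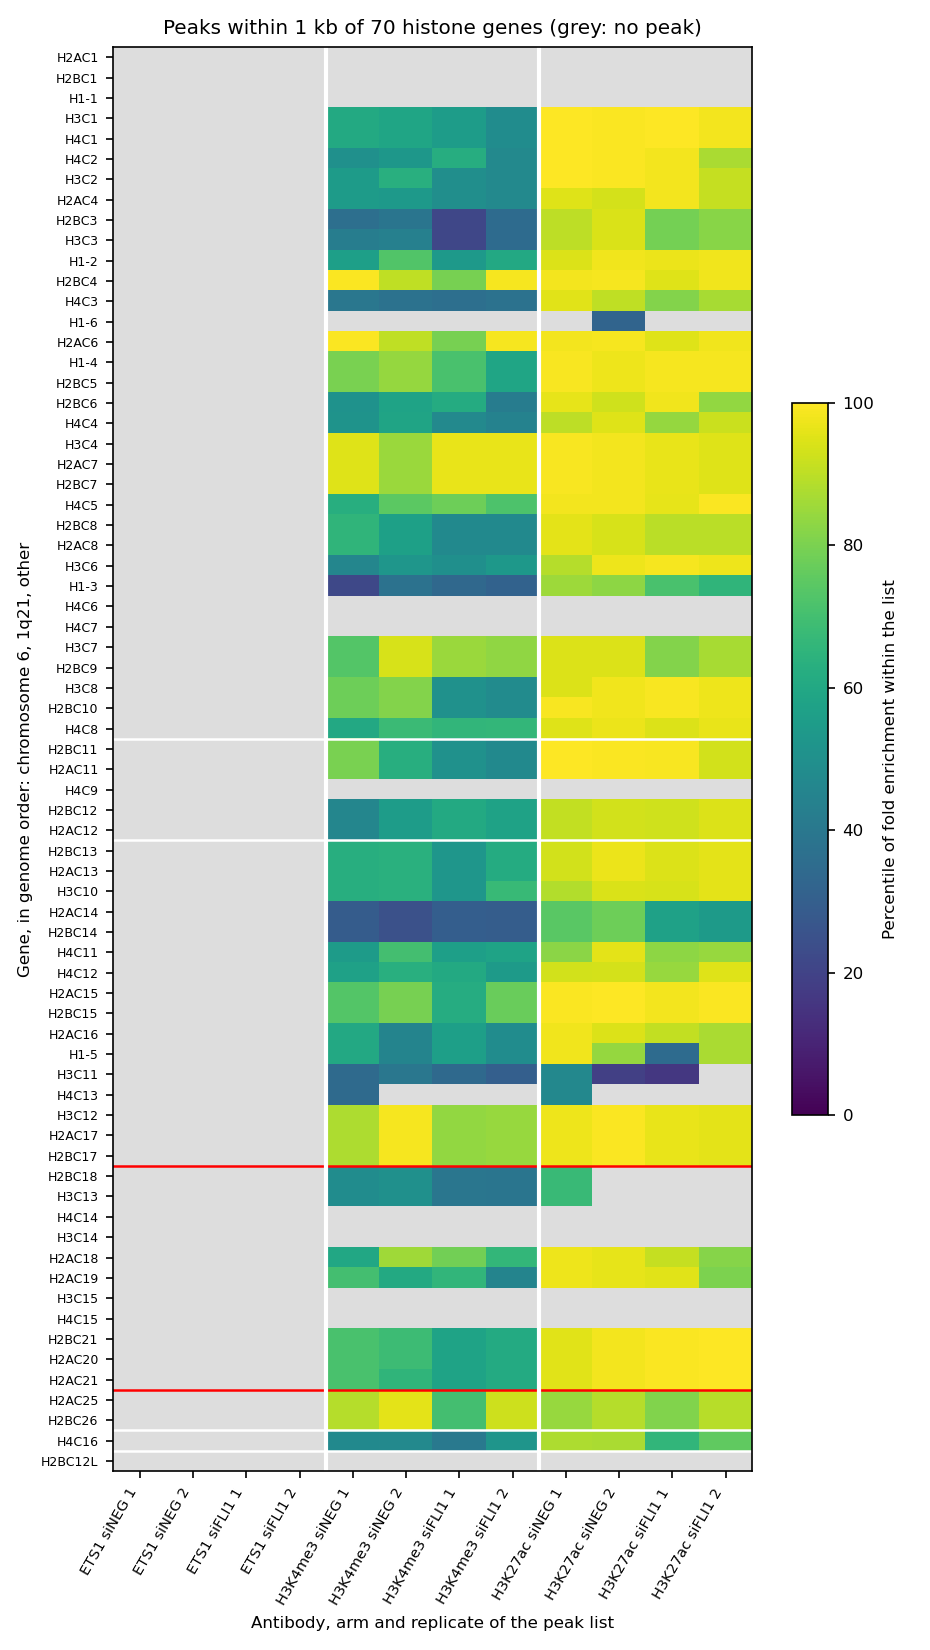
Percentile of fold enrichment of the strongest peak within 1 kb of each of the 70 histone genes (rows, in genome order, red lines between chromosome 6, 1q21 and other genes, white lines between groups) in each of 12 lists (columns). All ETS1 columns are grey, meaning no peak, and 12 genes are grey in all H3K4me3 columns.

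Most histone genes carried both marks. H3K4me3 was present at 58, 57, 57 and 57 of the 70 genes, and 57 had it in all 4 lists, against 62.7% of all genes. H3K27ac was present at 58, 56, 55 and 54 genes, and 54 had it in all 4 lists, against 46.3% of all genes. The mean difference between the arms (siFLI1 minus siNEG) was -2.5 genes for H3K27ac (p = 0.33, exact two-sided permutation test, n = 2 lists per arm, where 0.33 is the smallest p possible) and -0.5 genes for H3K4me3 (p = 1). No histone gene gained a mark, in the sense of both siFLI1 lists and neither siNEG list, and none lost one. Over all genes 1.91% gained and 0.635% lost H3K27ac, and 0.869% gained and 0.2% lost H3K4me3. Partial calls were few. H2BC18 and H3C13 had H3K27ac in siNEG 1 only, H3C11 in all but siFLI1 2, H4C13 had both marks in siNEG 1 only, and H1-6 had H3K27ac in siNEG 2 only.

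Of the 70 genes, 12 had no H3K4me3 peak in any list: H1-1, H1-6, H2AC1, H2BC1, H2BC12L, H3C14, H3C15, H4C6, H4C7, H4C9, H4C14 and H4C15. All but H1-6 also lacked H3K27ac in the 4 lists, and the same 12 genes lacked H3K27ac in both ab4729 lists. H1-6, H2AC1 and H2BC1 are known as testis genes. Over all genes 34% had no H3K4me3 and 41.8% no H3K27ac in any of the 4 lists. By histone, 5 of 15 H4 genes, 2 of 6 H1, 2 of 13 H3, 2 of 19 H2B and 1 of 17 H2A genes lacked H3K4me3.

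The unmarked genes of 1q21 had a property of their sequence in common. For H3C14, H3C15, H4C14 and H4C15 the whole window of 2001 bp around the TSS occurred a second time in the genome, base for base: H3C14 matched the window of H3C15, and H4C14 that of H4C15. H2BC12L matched another place on chromosome 21 over its whole window. Reads from such windows cannot be placed at 1 copy, and what the authors' alignment did with such reads is not given in the sources used here. So in these 5 genes an absent mark and a mark lost in the alignment cannot be told apart. The same holds for the absence of ETS1 in copied windows. The other 7 unmarked genes, all on chromosome 6, had no exact copy of at least 100 bp in their windows. Partial copies were also found at marked genes. Of the 57 genes with H3K4me3 in all 4 lists, none had a wholly copied window, 4 had more than 50% of it in exact copies and 36 had no copy. Those 4 all lay in 1q21: H2AC18 (88.1%) and H2AC19 (88.0%), which match each other, H3C13 (86.6%) and H2BC18 (73.8%). The merged H3K27ac region of H2AC18 and H2AC19 (chr1:149843300-149850521) spanned the sequence between their copies (chr1:149841751-149843511 and chr1:149850301-149852062) and ended inside them, so the peak widths of these 4 genes may also miss the copied bases. On chromosome 6 the highest share was 24.6%, at H4C11 and H4C12. On chromosome 6, H3K4me3 was in all 4 lists at 47 of 55 genes and H3K27ac at 46. At 1q21 the counts were 7 and 5 of 11. Since 4 of those 11 windows were copied whole and 4 more over most of their length, the clusters cannot be compared on these counts.

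Of the 4 genes outside the clusters, H2AC25 and H2BC26 shared a promoter with both marks in all 4 lists, with H3K27ac at percentiles 84.8, 88.7, 81.1 and 89.2. Their H3K4me3 stood at percentiles 89.0, 96.1, 70.2 and 92.4. H4C16 had H3K27ac at percentiles 87.6, 87.2, 65.8 and 75.5, lower in both siFLI1 lists, and H3K4me3 at 47.4, 47.1, 40.6 and 52.1. H2BC12L had neither mark.

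H2A and H2B genes often stand head to head, transcribed away from each other. There were 12 such pairs, with 194 to 251 bp (median 238 bp) between the starts. Of the 24 paired genes, 22 had both marks in all 4 lists, all but the testis pair H2AC1 and H2BC1. Of the 12 unpaired H2A and H2B genes, 10 had H3K27ac and 11 had H3K4me3 in all 4 lists. The marks varied widely among pairs. H2AC15 and H2BC15 had the highest mean H3K27ac percentile of the pairs, 99.2, and H2AC14 and H2BC14 the lowest, 66.1. The latter pair was also lowest in H3K4me3, at 28.3, and H2AC7 and H2BC7 were highest, at 93.3.

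In the Active Motif H3K27ac lists and the H3K4me3 lists, the marks were of unequal rank at histone genes. At the 54 genes with both marks in all 4 lists the median of the mean H3K27ac percentile was 95.4, and that of H3K4me3 was 60.3. Over all 9009 genes with both marks the medians were 86.4 and 79.2. H3K27ac ranked above H3K4me3 at 52 of the 54 histone genes, against 65.6% of all genes. The exceptions were H2AC25 and H2BC26, outside the clusters. An H3K27ac percentile of 90 or more was found at 41 of 54 (38.9% of all genes), and an H3K4me3 percentile of 90 or more at 5 of 54 (16.6% of all genes). Those 5 were H2BC4, H2AC6, H3C4, H2AC7 and H2BC7. At 50 histone genes in the ab4729 lists the median H3K27ac percentile was 82.9 in siNEG and 86.8 in siFLI1. Over 8490 genes it was 79.7 and 87.0, so there the histone genes ranked higher in siNEG only. Percentiles are ranks within lists of very different length, so they describe a place in a list and no amount. They carry no test, since neighbouring genes share peaks.

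**Figure D2:**
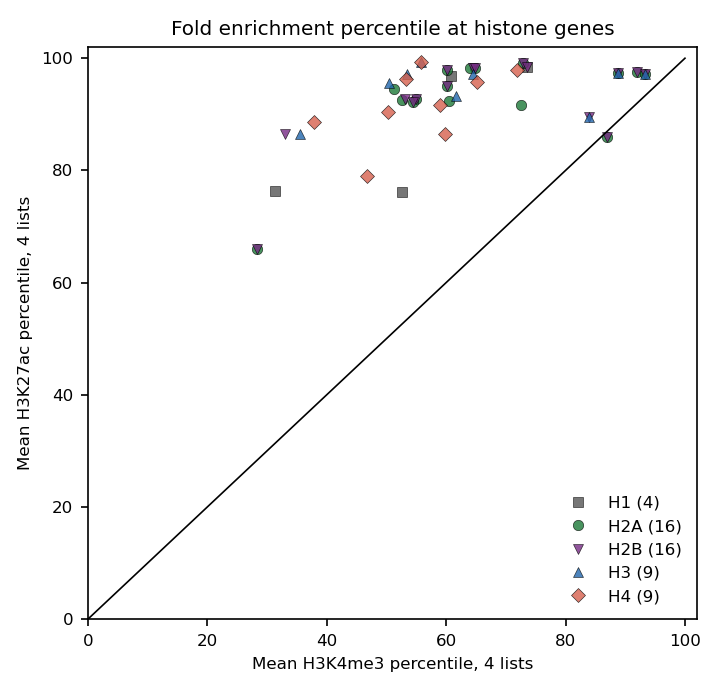
Mean percentile of fold enrichment over 4 lists for H3K4me3 (x axis) and H3K27ac (y axis) at the 54 histone genes with both marks in all 4 lists, by histone family, with the line of equality. All points but those of H2AC25 and H2BC26 lie above the line.

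H3K4me3 regions ranged from under 500 bp to over 7 kb. By the mean over the 4 lists, the widest were shared by H3C4, H2AC7 and H2BC7, with 6537, 7381, 6609 and 7030 bp. In siNEG 1 the peak at H3C12, H2AC17 and H2BC17 was wider, with 6840 bp. The narrowest were at H2BC18 and H3C13 in 1q21, with 465, 475, 457 and 471 bp, in windows mostly made of exact copies. By family, the median width of H4 genes was the smallest, 1834, 1854, 1707 and 1851 bp, and that of H2B genes was 4346, 2729, 4441 and 4253 bp. The linker histone genes differed among themselves. H3K4me3 fold enrichment was 53.2, 60.1, 47.0 and 34.8 at H1-4 and 4.47, 6.91, 8.58 and 7.37 at H1-3.

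H3K27ac formed broad domains over the clusters. The peaks of the 4 lists merged into 40 regions next to histone genes, of which 25 lay within 1 kb of 2 or more of them. The region with most members ran from H3C1 to H2AC4 (chr6:26019470-26035581) and held 5 genes. The widest, 18.45 kb beside H2BC4 and H2AC6, lay at chr6:26124113-26142562.

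In the Active Motif lists the median H3K27ac peak width at the histone genes was lower in siFLI1, while that of all genes was higher. The ab4729 pair, described further on, did not show this. The median width of the widest peak at the 54 genes was 3775.5 and 3476.5 bp in siNEG and 3070.5 and 3024 bp in siFLI1. The arms did not overlap, and their means were 3626 ± 211 and 3047 ± 32.9 bp (SD, n = 2; p = 0.33, exact two-sided permutation test, the smallest possible). Over the 9274 genes with H3K27ac in all 4 lists the median went the other way, 1438.5 and 1185.5 bp in siNEG and 1688 and 1605 bp in siFLI1. The median log2 ratio of width, siFLI1 over siNEG, was -0.10 at the histone genes and 0.26 over all genes. It was below 0 at 35 of 54 histone genes and at 29.3% of all genes.

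Gene by gene, both siFLI1 widths were below both siNEG widths at 17 of 54 histone genes, against 10.5% of all genes. They were above at 2, H2AC15 and H2BC15, against 39.2%. The authors' fold enrichment (column 7 of the lists) was lower without overlap at 24 of 54, against 10.2%, and higher at 9, against 36.6%. The median fold enrichment itself was 18.7, 16.1, 16.2 and 15.8, and its arms overlapped (p = 0.67, exact two-sided permutation test, n = 2 lists per arm). Over all genes it was 10.5, 7.84, 11.1 and 10.8. Genes with peaks as wide as those of the histone genes were looked at separately. Of the 970 genes whose mean width over all 4 lists reached the histone genes' median, 16.7% were narrower and 37% wider, and of the 27 histone genes among them 11 were narrower and 2 wider. Fold enrichment was lower at 14 of the 27, against 18.1%, and higher at 5, against 28.5%. Genes that share a region count more than once here, since 54 genes lay in fewer regions.

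**Figure D3:**
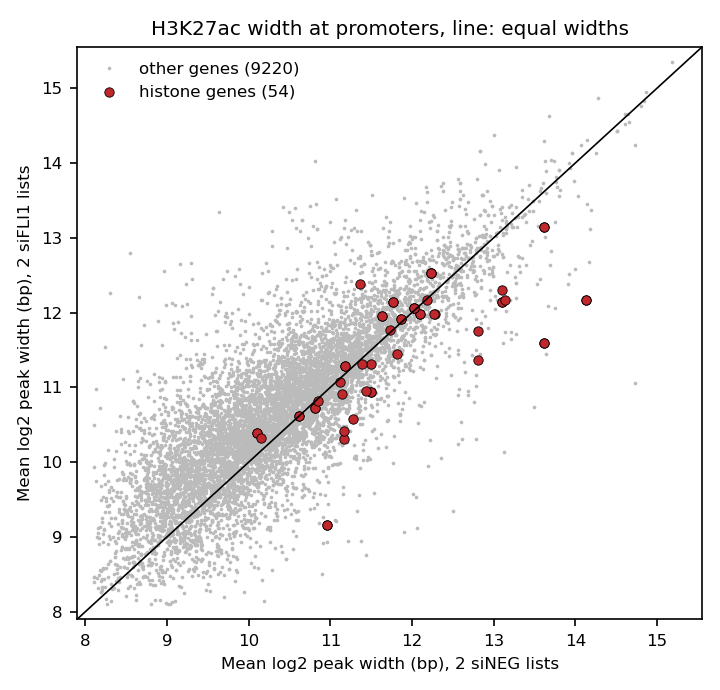
Mean log2 width of the widest H3K27ac peak within 1 kb of a TSS in the siNEG lists (x axis) and the siFLI1 lists (y axis), for 54 histone genes (red) and all other genes with H3K27ac in the 4 lists (grey), with the line of equal widths. Of the red points, 35 lie below the line.

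The widest domain shows what the peak lists recorded. Beside H2BC4 and H2AC6, H3K27ac covered 18195 and 18424 bp of the region in siNEG, in 2 and 1 peaks, and 11030 and 13013 bp in siFLI1, in 10 and 5 peaks. Their widest peak went from 17339 and 18424 bp to 4459 and 4718 bp. At H3C1 and H4C1 the widest peak measured 12582, 12575, 3965 and 2410 bp, but the bases covered in that region were 14991, 15914, 14834 and 14069 in 3, 2, 3 and 5 peaks. Peak borders had shifted there: at H4C2 and H3C2, in the same region, the widest peak measured 12582, 12575, 10320 and 8005 bp, and at H2AC4 2084, 3339, 10320 and 2735 bp. H2AC15 and H2BC15 showed the reverse, with a widest peak of 3492, 3484, 4836 and 4188 bp and covered bases of 5607, 5547, 4836 and 4463. Fold enrichment there was 38.5, 33.5, 21.8 and 30.6. H2AC18 at 1q21 had widths of 7216, 7161, 3060 and 2297 bp, but covered bases of 7216, 7161, 6628 and 6756 in 1, 1, 3 and 3 peaks.

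Covered bases depend less on the borders of single peaks, but gaps between the pieces of a divided peak still lower them. Of the 35 merged regions with H3K27ac in all 4 lists, fewer bases were covered in both siFLI1 lists than in either siNEG list in 19, and more in 3. Over all 10211 such promoter regions the shares were 13.3% and 39.6%. The 3 regions that went up lay at H2BC4 and H2AC6, on the other side of the start from the domain described above, at H2AC25 and H2BC26, and at H2BC13, H2AC13 and H3C10. The span of the main chromosome 6 group had 127.2 and 127.2 kb under H3K27ac peaks in siNEG and 101.4 and 99.8 kb in siFLI1, or 22.5 and 22.5% and 17.9 and 17.6% of its length. The mean fold enrichment of those peaks was 10.1, 8.12, 9.42 and 9.39. The group of 16 genes had 36.5, 37.3, 31.6 and 28.1 kb, and 1q21 had 13.9, 14.9, 12.2 and 12.4 kb. The lists covered 63.0 and 58.6 Mb of the genome in siNEG and 69.2 and 65.6 Mb in siFLI1, so the clusters went against the total. Not every histone gene followed. At H2BC21, H2AC20 and H2AC21 the fold enrichment was higher in siFLI1, 18.5, 19.4, 29.0 and 34.1, although the bases covered were 6705, 6782, 5895 and 5928. At H3C6 it was 11.4, 16.6, 24.4 and 20.7.

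The H3K27ac pair labelled ab4729 did not show narrower peaks. Its antibody label also carries a second catalogue number, so whether it differs from the other lists in antibody is not certain. It had a peak at 52 histone genes in siNEG and 56 in siFLI1, against 44.6% and 49.7% of all genes, and at 50 in both, against 42.4%. In the ab4729 lists the median width at 50 histone genes was 790 bp in siNEG and 942.5 bp in siFLI1, and over 8490 genes it was 519 and 654 bp. The median log2 ratio was 0.31 at the histone genes and 0.29 over all genes. The peak was wider in the siFLI1 list at 36 of 50 histone genes, against 70.7% of all genes, and narrower at 14, against 28.9%. At H2BC4 the width was 1639 and 1775 bp. The main chromosome 6 group had 43.8 kb under peaks in siNEG and 49.0 kb in siFLI1, while the lists covered 15.4 and 25.5 Mb of the genome. There was 1 ab4729 library per arm, the siFLI1 list was the longer one, and no test was possible. Fold enrichment in this pair had a median log2 ratio of 0.0042 at the histone genes and 0.13 over all genes. With the Active Motif antibody these were -0.34 and 0.24. What set the difference between the ab4729 pair and the other lists was not tested.

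**Figure D4:**
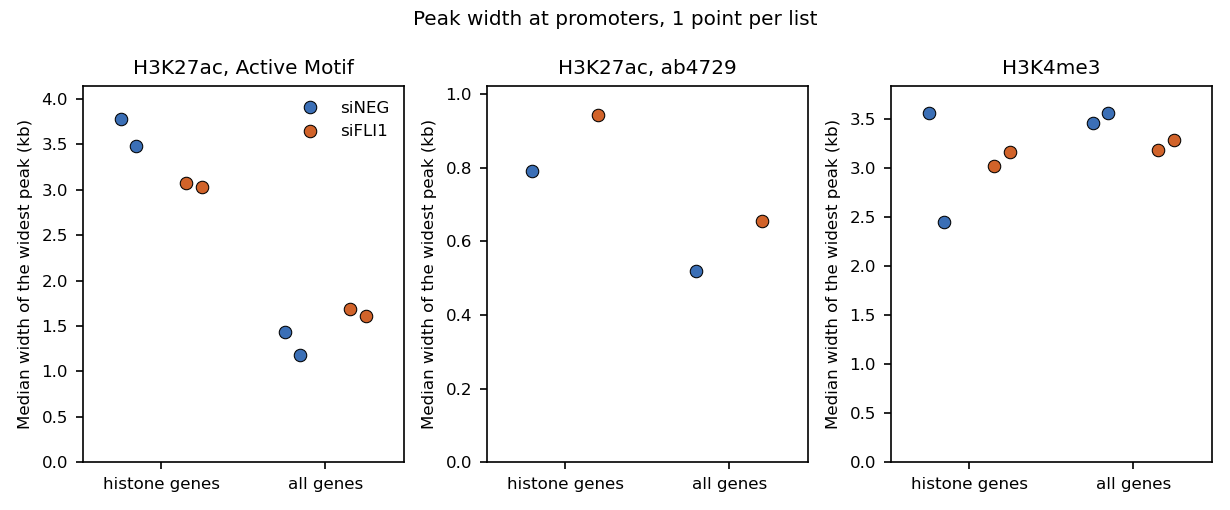
Median width of the widest peak within 1 kb of a TSS, in kb, 1 point per list, for the histone genes and for all genes with a peak in every list of that antibody. In the Active Motif H3K27ac lists the histone genes are lower in siFLI1 and all genes higher; with ab4729 both are higher in siFLI1.

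**Figure D5:**
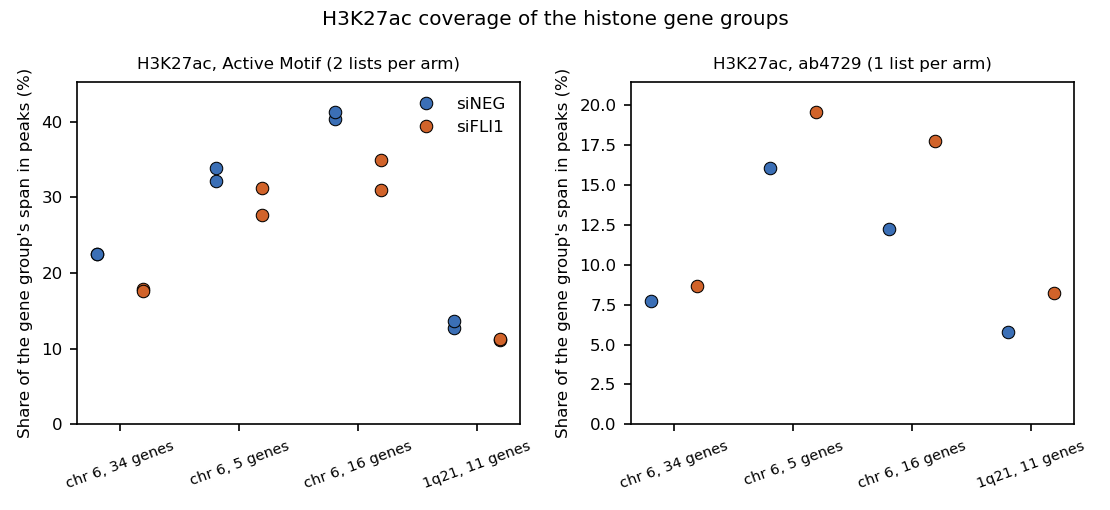
Share of the span of each histone gene group (with 2 kb at each end) that lay in H3K27ac peaks, in %, 1 point per list. Active Motif lists in siFLI1 lie below those in siNEG in all 4 groups, and the ab4729 list in siFLI1 lies above that in siNEG in all 4.

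The median width of H3K4me3 did not separate the arms, while its median fold enrichment did. The median width at the 57 genes was 3558, 2449, 3016 and 3164 bp, so the siFLI1 lists lay within the spread of the siNEG lists (p = 1, exact two-sided permutation test, n = 2 lists per arm). Without siNEG replicate 2 the difference of the means turned from 86.5 to -468 bp. Over all 12552 genes with H3K4me3 the median was 3458.5, 3561, 3179 and 3283.5 bp. Widths were lower without overlap at 14 of 57 histone genes, against 38.5% of all genes, and higher at 17, against 15.8%. Fold enrichment was lower at 19, against 17%, and higher at 11, against 27.5%. Of 35 merged H3K4me3 regions in all 4 lists, 7 covered fewer bases and 11 more, against 38.6% and 16.7%. The median fold enrichment at the histone genes was 34.7, 35.4, 32.3 and 33.7 (p = 0.33, exact two-sided permutation test, n = 2 lists per arm, the smallest possible), and over all genes 45.3, 47.5, 47.2 and 47.5. At H2BC11 it was 53.0, 34.4, 25.6 and 22.1, lower in both siFLI1 lists. At H3C6 it was 15.3, 21.3, 24.9 and 28.8, higher in both, as H3K27ac was.

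Genes that serve the histone genes were taken as lists for comparison. Of 17 genes for their transcription and 3′ end processing, among them NPAT, SLBP and HINFP, 17 had H3K4me3 and 15 had H3K27ac in all 4 lists, and none gained or lost either mark. Over all genes 62.7% had H3K4me3 and 46.3% had H3K27ac in all 4 lists. None had ETS1 in a siNEG list, against 1.94% of all genes. In both siFLI1 lists 3 had it, against 7.68% of all genes and 15.2% of genes with both marks in all 4 lists. They were CPSF3 (a subunit of the cleavage complex), POU2F1 and NFYC (a CCAAT-binding subunit). NPAT had no ETS1 peak. At POU2F1 the H3K27ac fold enrichment was 26.9, 27.8, 9.25 and 12.3, lower in both siFLI1 lists. Of 8 histone chaperone genes none had ETS1 in a siNEG list or in both siFLI1 lists.

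Variant histone genes lie outside the clusters, and many of them, such as those for H3.3, make polyadenylated mRNA and are expressed outside S phase too. Of 12, 3 had ETS1 in both siFLI1 lists: H2AZ2, H3-3A and H3-3B. The share was 7.68% over all genes and 15.2% over genes with both marks in all 4 lists. H3-3A, which encodes the replacement histone H3.3, was the only one with ETS1 in siNEG, at a fold enrichment of 5.83 and 7.62, and of 6.42 and 10.6 in siFLI1. So histone genes of the other kind were not without ETS1 peaks in these lists. H3K27ac was in all 4 lists at 10 of the 12. Of these 10, its fold enrichment was lower without overlap in siFLI1 at 6 and higher at 2, against 10.2% and 36.6% of all genes, so a lower fold was not seen at the clustered genes alone. Its width was lower at 1 and higher at 4, against 10.5% and 39.2% of all genes.

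Among 12 DNA replication genes, which are also active around S phase, H3K27ac fold enrichment was lower without overlap at 9 of the 10 with the mark in all 4 lists, and higher at 0, against 10.2% and 36.6% of all genes. H3K27ac width was lower at 5 and higher at 1 of those 10, against 10.5% and 39.2%. At the 7 Ewing sarcoma markers with H3K27ac in all 4 lists, width was lower at 4 and higher at 0. Narrower peaks were thus not seen at the clustered genes alone. Width was lower at 2 and higher at 2 of the 15 transcription and processing genes, and at 1 and 3 of the 8 chaperone genes. H3K4me3 fold enrichment was lower at 10 of 12 replication genes and higher at 0, against 17% and 27.5%. MCM2, a subunit of the replicative helicase, had an H3K27ac fold enrichment of 23.5, 20.6, 8.93 and 9.30. CCNE1, which encodes cyclin E1, was the only one of the comparison genes without H3K27ac in both siFLI1 lists after a peak in both siNEG lists, at a fold enrichment of 4.31 and 4.85. ETS1 lay at MCM7 in siNEG replicate 1 and both siFLI1 lists, at 6.16, 8.12 and 11.4, and at PCNA in both siFLI1 lists. That made 2 of 12 genes with ETS1 in both siFLI1 lists, against 7.68% of all genes. Cell cycle stage was not measured in these samples, and its part in the marks at histone genes was not tested.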

How the data were processed

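Per the submitters' processing notes, which list names without roles or order, the tools were cutadapt 4.4, BWA 0.7.17, Picard 2.17.11 and MACS2 2.1.1, and the builds GRCh38, hg38 and dm6. The 14 deposited files are peak lists called per library, not on pooled replicates. Column 7 of the deposited lists is the authors' fold, a ratio to background, their −log10 columns are the authors' p-value and q-value (lowest −log10 q between 2.01 and 2.55), and the deposited score and summit columns were used only for the summit rule. Coordinates are read as hg38 (GRCh38) from those notes and counted from 1. The fold per peak is the authors' own value. It is used to describe and rank peaks within a list, and to compare arms by counts, ratios and medians. It was not rescaled between lists. A stronger immunoprecipitation or a deeper library passes more peaks at a fixed q limit and widens them, so presence and width are not amounts.

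Only the assembled nuclear chromosomes were used. Rows that shared an interval were merged with their highest fold. A gene had a peak if one overlapped by at least 1 bp the positions within 1 kb of any of its TSSs. The widest width and the highest fold there were taken, and the fold was ranked as a percentile of its list. Arms were compared with exact two-sided permutation tests over lists. The search was tested on simulated peaks. Whole summit heights were recovered from fold and −log10 p within a tolerance of 0.02, for at least 99.2% of the peaks with −log10 p under 300, and compared over regions with 1 peak per list and summed heights of at least 50 (ETS1) or 100 (marks) and at most 800. Exact copies of at least 100 bp of promoter windows were read from the letters of all blastn 2.17.0 hits, and checked by direct search within the cluster regions. The peak names in the list of siFLI1 ETS1 replicate 1 carry the number 2. The 8 input samples have no list and were not used.

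The members and the lists were chosen with earlier results of these data known. The genes named are those with ETS1 in a siNEG list, gained or lost genes, genes without a mark, genes outside the clusters, those with the widest and narrowest H3K4me3, and genes of the comparison lists with ETS1 in siNEG or a gained or lost mark. H3-3B, H2AZ2, CPSF3, POU2F1, NFYC, PCNA and MCM2 and the other example genes and regions were chosen after their values were seen. Of the markers of other cell types, CDH1 gained H3K27ac, and 1 other result is not reported here. Python 3.11.15, numpy 2.4.6, pandas 2.3.3 and scipy 1.17.1 were used.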

Additional observations from a re-analysis of the deposited data

How the results depend on the processing

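Of 154 values from 14 results under alternatives, 130 kept their direction or moved by less than the spread or by 1.5 times at most. No ETS1 peak lay within 2 kb of a histone gene, and only this alternative could have added one. The others could only remove peaks, so their 0 was fixed by the main result. They were 500 bp, canonical starts, equal numbers of strongest peaks, −log10 q of at least 5, summits in place of overlaps, and any list left out. Of the 130 values, 10 came from the ETS1 gene count and 11 from the ETS1 difference between clusters, all 0. The ETS1 median percentile gave no value, since no histone gene had a peak. The H3K27ac median width stayed lower in siFLI1 in every alternative but one, with differences of -728 to -429 bp when a replicate was left out, -284 bp by summit, and -149 bp with the ab4729 lists added to each arm (p = 0.8, exact permutation test). It reversed to 152.5 bp with the ab4729 lists only, an alternative chosen after seeing the data. By summit within 1 kb, 9 histone genes were narrower in H3K27ac and 4 wider, 7 were narrower in H3K4me3, and the median percentiles were 92.4 for H3K27ac and 55.8 for H3K4me3. With −log10 q of at least 5 the percentiles were 94.2 and 56.4. Left-out replicates gave 27 to 28 narrower and 8 to 11 wider genes in H3K27ac and 14 to 25 and 23 to 29 in H3K4me3, since 3 lists overlap less often than 4 by construction. The H3K4me3 width difference ranged from -468 to 641 bp, reversed without siNEG replicate 2. The H3K4me3 gene count differed by -1 to 0 with a replicate left out and by 0.5 within 2 kb, and by -5.5 by summit within 1 kb (means of 50.5 in siNEG and 45 in siFLI1, p = 0.33, exact permutation test, the smallest possible). As bases covered within 2 kb of the canonical start, chosen after seeing the data, H3K4me3 was lower at 5 genes and higher at 9. In the other cases the cause was not tested. Same-numbered lists share only a number: their deviations in log2 width had a correlation of 0.041 over 9274 genes for H3K27ac and -0.038 over 12552 for H3K4me3. With the replicate block the differences stayed -578.75 bp and 86.5 bp, with p of 0.5 and 1 (exact permutation, 2 pairs, smallest p 0.5). Depth is unknown, which limits what an absent ETS1 peak can show, above all in siNEG.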
